A study of Mus musculus with 11 samples.

Results

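The genes described here encode coagulation and complement proteins that the liver makes and secretes into the blood. The list named 37 genes, and 34 of them had at least 1 probe set that the platform annotation gives to that gene alone. C3, C4b and Cpb2 were not analysed here, since no probe set carried only their symbol. The 34 genes had 44 probe sets, and each gene is represented by its probe set with the highest mean over the 11 samples. The genes are thus 34 of 12393 genes with a probe set of their own on the array, and all 34 passed the filter on low values.

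Glutathione reductase, the product of Gsr, uses NADPH to return oxidised glutathione to its reduced form. The groups were livers of 5 wild-type (WT) and 6 Gsr-null male mice on the C57BL/6J background, aged 15 to 20 weeks and harvested between 2 and 4 in the afternoon. No treatment was given, and the sources used here do not say how the null allele was made. The labels call the samples biological replicates, each measured on 1 Affymetrix array, and samples are numbered here as in their titles. Whole liver was used, so fewer cells of a type and less RNA per cell cannot be told apart.

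In the coagulation cascade, tissue factor with factor VII, or the contact system of factor XII, prekallikrein and kininogen, starts a chain of serine proteases that ends with thrombin turning fibrinogen into fibrin. Antithrombin, heparin cofactor II and the protein C system hold the chain in check, and plasmin dissolves the clot. Complement is a second set of plasma proteases, started by antibody through C1, by sugars through the mannose-binding lectins, or by C3 and factor B on a surface, and it ends in a pore built from C5b, C6, C7, C8 and C9. Hepatocytes are the main source of nearly all of these proteins, and several, fibrinogen among them, are acute phase proteins that the liver makes in larger amounts after interleukin-6.

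On the log2 scale WT samples had a mean Gsr level of 6.82 ± 0.126 (SD, n = 5). The mean of Gsr-null samples was 4.99 ± 0.207 (SD, n = 6), and the groups did not overlap. All 9 measured hepatocyte markers passed the filter, with the log2 of their summed level at 16.89 to 17.05 in WT and 16.90 to 17.06 in Gsr-null samples. None of the measured markers of neutrophils (7), T and NK cells (5), B cells (4), cholangiocytes (4) or platelets and megakaryocytes (6) passed the filter. The filter asks for 5 or more samples, so a signal in 1 sample alone does not pass it. The log2 of the summed neutrophil markers was 7.73 in Gsr-null sample 1. It was 4.95 to 5.23 in WT samples and 4.96 to 5.45 in the other Gsr-null samples. For Gapdh and Actb the array carries control probe sets at both ends of the transcript, and their 3' minus 5' difference grows as RNA is degraded or incompletely labelled. Samples fell into 2 sets by this difference. The set with the lower difference held WT samples 2 and 4 and Gsr-null samples 1, 2 and 3, and the set with the higher difference held the others.

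No member of the list passed the test of a difference between the genotypes. By limma 0 of 34 had an adjusted p under 0.05, against 26 of 6021 genes tested (0.432%), and the smallest adjusted p was 0.28, that of Klkb1. At an unadjusted p under 0.05 there was 1 member of 34 (2.94%), against 8.79% of all genes. Of the members 19 were higher and 15 lower in Gsr-null livers, where 42.7% of all genes were higher, with a median difference (Gsr-null minus WT) of 0.022 on the log2 scale, against -0.032 over all genes. The median size of the difference was 0.12, against 0.129 over all genes.

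The intervals give the range of differences that the fit allows, gene by gene. They take the spread as equal in both genotypes and are not adjusted for the number of genes. For 23 of the 34 members the 95% interval of the difference lay within 1.5-fold in either direction, against 61.2% of all genes, and for 30 it lay within 2-fold, against 90.1%. The intervals of F2, F5, F10, F13b and the 3 fibrinogen chains were among the 23. The exceptions to the 2-fold bound were C6, F12, Masp2 and C8b.

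**Figure D1:**
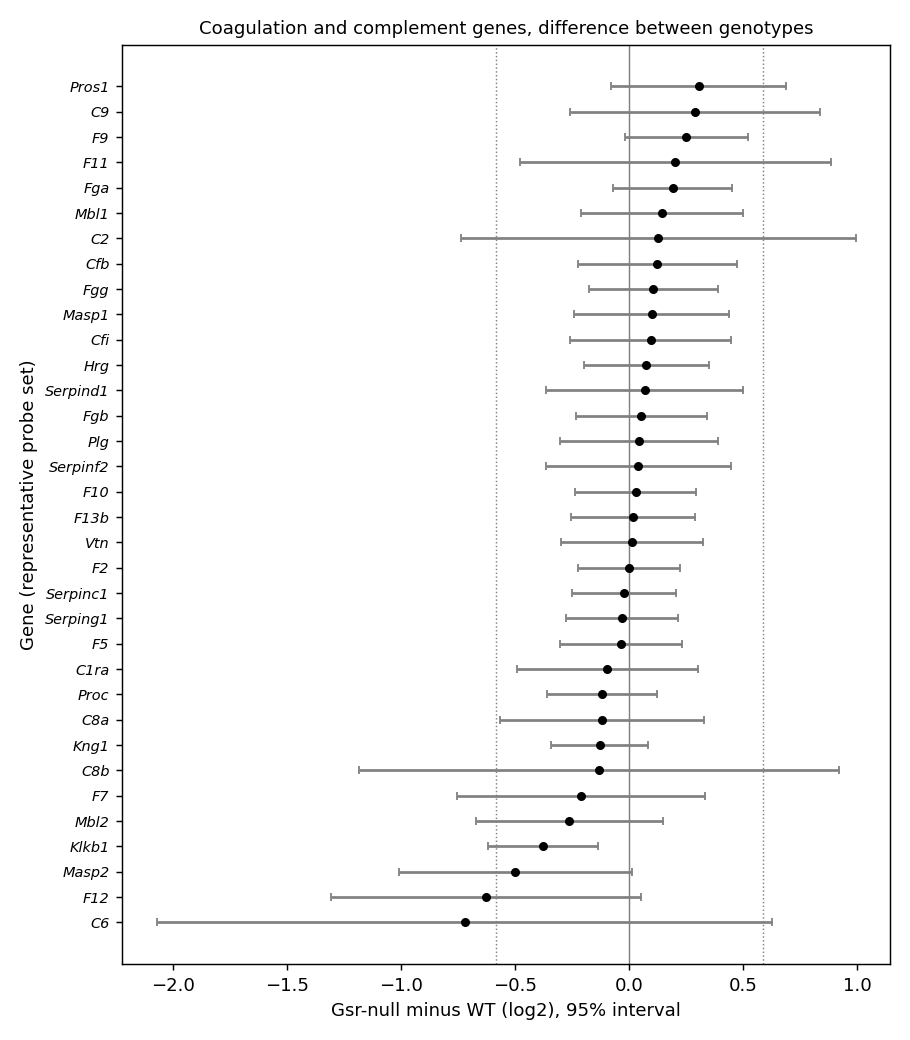
Difference between the genotypes (Gsr-null minus WT, log2, x axis) for each of the 34 genes (y axis), as points with 95% intervals from limma; dotted lines mark 1.5-fold. The interval of Klkb1 is the only one that leaves out 0, and C6, F12, Masp2 and C8b have intervals that reach past 2-fold.

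Klkb1, which encodes plasma prekallikrein, the protease precursor of the contact system, was the only member whose groups did not overlap, against 1.51% of all genes (0.864% lower and 0.648% higher in Gsr-null livers). Its log2 values were 10.71, 11.11, 10.79, 10.91 and 11.06 in WT samples 1 to 5, and its lowest, median and highest values in Gsr-null samples were 10.35, 10.54 and 10.68. Every Gsr-null sample thus lay below the lowest WT sample, though the nearest values of the groups were close. The difference was -0.38 (SE 0.111, limma adjusted p = 0.28), or 1.30-fold higher in WT, which did not pass the test. It was -0.43 within the set of lower and -0.36 within the set of higher 3' minus 5' difference.

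The other genes of the contact system were also lower on average in Gsr-null livers. F12, coagulation factor XII, was 10.73, 10.59, 10.97, 10.33 and 10.94 in the 5 WT samples and 9.06 to 11.001 in Gsr-null samples, with a median of 9.99. Gsr-null samples 1, 3, 5 and 6 were below every WT sample, at 9.66, 9.76, 10.22 and 9.06, while samples 2 and 4 were above or within the WT range, at 11.001 and 10.81. The difference of -0.63 (SE 0.312, limma adjusted p = 0.647) did not pass the test. Lcn2, an acute phase gene, was highest in the 3 Gsr-null samples with the lowest F12, at 13.03, 10.27 and 12.58 in samples 1, 3 and 6, and 8.25, 5.90 and 7.50 in samples 2, 4 and 5. The part of the acute phase response in the values of F12 was not tested. Kng1, the kininogen that carries prekallikrein, differed by -0.13 on its representative probe set and by -0.14 on its second one.

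Klkb1 lies beside F11, the gene of factor XI, a protein of the same descent, and both are on chromosome 8, as is Gsr. In the gene order of RefSeq assembly GRCm38.p6, 49 protein-coding genes lie between F11 and Gsr and 50 between Klkb1 and Gsr. F7 and F10, also on chromosome 8, are 183 and 182 genes away. The values of F11 were 9.17, 9.21, 9.33, 8.97 and 9.02 in WT samples and 8.29 to 10.29 in Gsr-null samples, with a median of 9.49 and a difference of 0.20 (SE 0.313, limma adjusted p = 0.97). The 95% interval of -0.48 to 0.88 holds the difference of Klkb1, and the genes were not tested against each other. The deviations of F11 and Klkb1 from their genotype means showed a Pearson's r of -0.0527 over the 11 samples (permutation p = 0.875, adjusted p = 0.963) and a Spearman's rho of -0.0273 (permutation p = 0.943, adjusted p = 0.961), with r at 0.157 without Gsr-null samples 1 and 4.

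The promoters of this neighbouring pair are shown because the genes lie side by side. They run from 250 bases before to 50 after the RefSeq start in build GRCm38.p6, Klkb1 at chr8:45294786-45295085, minus strand and F11 at chr8:45261982-45262281, minus strand. Capitals here and in the other promoters shown mark matches on either strand to TTCNNNGAA (the site of STAT factors), CTGGGAA (a core of the interleukin-6 response element), TTGCNNAA (C/EBP factors) or GTTAAT (a core of the HNF1 site).

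Klkb1: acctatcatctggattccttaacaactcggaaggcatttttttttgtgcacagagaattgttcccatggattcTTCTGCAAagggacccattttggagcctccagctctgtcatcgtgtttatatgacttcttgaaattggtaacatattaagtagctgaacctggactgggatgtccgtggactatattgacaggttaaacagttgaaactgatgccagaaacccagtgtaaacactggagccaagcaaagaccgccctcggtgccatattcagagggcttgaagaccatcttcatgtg

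F11: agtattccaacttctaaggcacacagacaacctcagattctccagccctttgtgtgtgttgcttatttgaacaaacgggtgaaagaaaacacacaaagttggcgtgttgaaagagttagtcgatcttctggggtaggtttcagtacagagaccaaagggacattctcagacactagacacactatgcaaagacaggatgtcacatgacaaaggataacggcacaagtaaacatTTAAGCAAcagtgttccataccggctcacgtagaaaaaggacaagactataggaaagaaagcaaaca

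Each of this pair holds 1 match to the C/EBP letters and none to the others. Of the 34 genes, 26 matched the RefSeq promoter table and 8 did not. The C/EBP letters were in 9 of the 26 (34.6%), against 10.8% of all 32851 promoters in the table. The STAT letters were in 8 (30.8%, against 8.30%), those of the interleukin-6 element in 7 (26.9%, against 11.1%) and those of HNF1 in 8 (30.8%, against 7.10%). In 3 of the 26 a STAT match overlapped an interleukin-6 match. A match is a description of the letters, not a site shown to be in use.

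Fibrinogen is built from the products of Fga, Fgb and Fgg, and none of the 3 chains passed the test. Fga was 12.84, 12.88, 13.12, 12.96 and 12.97 in WT samples and 12.84 to 13.36 in Gsr-null samples, with a median of 13.16. Gsr-null samples 1, 2 and 6 exceeded every WT sample, while sample 4 was level with the lowest WT sample. The difference was 0.19 (SE 0.12, limma adjusted p = 0.797), or 1.14-fold. Fgb was 13.51, 13.78, 13.75, 13.72 and 13.63 in WT and 13.41 to 14.0001 in Gsr-null samples, with a median of 13.76 and a difference of 0.053 (SE 0.132, limma adjusted p = 0.99). Fgg was 12.88, 13.36, 13.26, 13.24 and 13.21 in WT and 13.01 to 13.50 in Gsr-null samples, with a median of 13.31 and a difference of 0.10 (SE 0.13, limma adjusted p = 0.956). The groups overlapped for each chain, and on Fgb and Fgg the lowest Gsr-null values were those of samples 4 and 5.

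The 3 genes lie in 1 cluster, and their promoters are shown because Fgb and Fgg followed each other from sample to sample. In build GRCm38.p6 they are at chr3:83025903-83026202, plus strand for Fga, chr3:83049814-83050113, minus strand for Fgb and chr3:83007474-83007773, plus strand for Fgg.

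Fga: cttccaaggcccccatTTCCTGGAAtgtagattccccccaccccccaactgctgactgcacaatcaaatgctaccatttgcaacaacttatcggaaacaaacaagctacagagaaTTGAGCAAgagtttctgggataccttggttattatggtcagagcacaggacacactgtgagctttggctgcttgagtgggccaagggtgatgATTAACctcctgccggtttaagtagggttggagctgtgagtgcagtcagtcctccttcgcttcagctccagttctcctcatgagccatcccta

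Fgb: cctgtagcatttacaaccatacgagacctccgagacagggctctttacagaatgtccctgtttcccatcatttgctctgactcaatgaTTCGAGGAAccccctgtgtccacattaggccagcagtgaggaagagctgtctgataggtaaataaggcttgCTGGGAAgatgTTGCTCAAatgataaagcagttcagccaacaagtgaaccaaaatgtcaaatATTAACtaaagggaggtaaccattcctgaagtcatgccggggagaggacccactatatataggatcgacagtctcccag

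Fgg: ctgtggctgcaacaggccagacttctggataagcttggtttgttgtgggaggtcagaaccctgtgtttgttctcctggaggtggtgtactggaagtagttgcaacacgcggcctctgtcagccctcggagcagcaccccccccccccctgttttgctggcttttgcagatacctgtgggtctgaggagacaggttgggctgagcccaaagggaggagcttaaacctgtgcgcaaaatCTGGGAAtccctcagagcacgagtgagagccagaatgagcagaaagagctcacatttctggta

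Fgb holds a match to all 4 motifs, Fga to all but the interleukin-6 element, and Fgg to the interleukin-6 element alone. The deviations of Fgb and Fgg from their genotype means correlated with a Pearson's r of 0.906 over the 11 samples (permutation p = 1e-05, the smallest the 100000 permutations can give, adjusted p = 0.00011) and a Spearman's rho of 0.927 (permutation p = 0.0001, adjusted p = 0.0011). Without Gsr-null samples 4 and 5, the farthest from the median of Fgb, r was 0.872. Fga with Fgb gave an r of 0.715 (permutation p = 0.0528, adjusted p = 0.083) and a rho of 0.624 (permutation p = 0.0858, adjusted p = 0.135), and 0.723 without Gsr-null samples 4 and 6. Fga with Fgg gave 0.481 (permutation p = 0.167, adjusted p = 0.204) and a rho of 0.501 (permutation p = 0.152, adjusted p = 0.21), and 0.59 without the same samples. These are 3 of 11 pairs of members so compared, over which the p-values were adjusted.

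**Figure D2:**
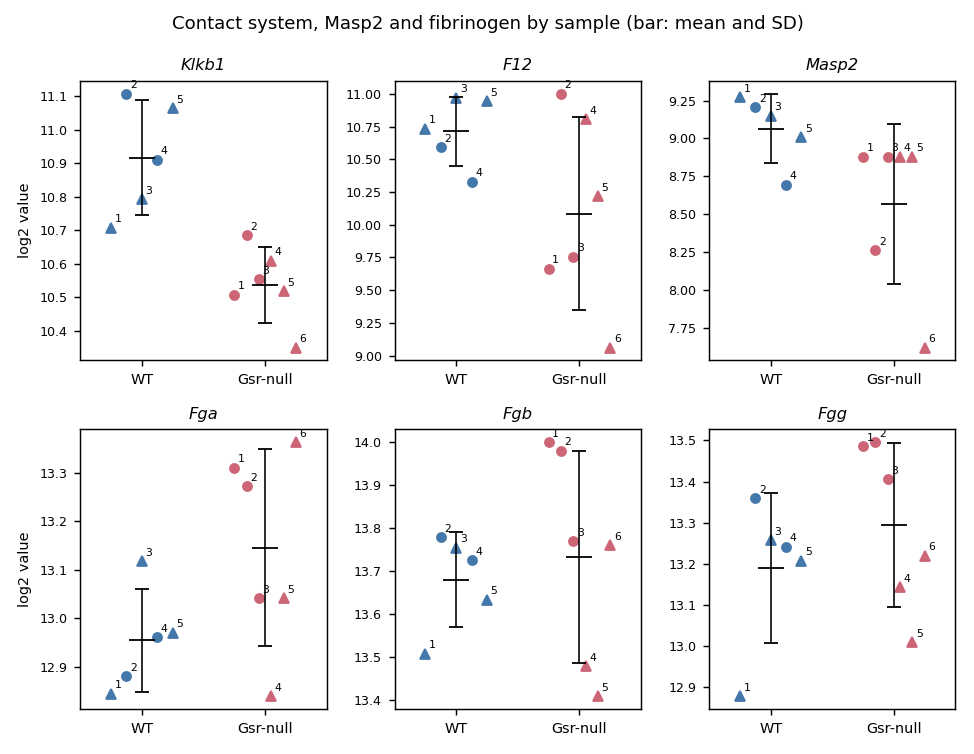
Log2 values (y axis) of Klkb1, F12, Masp2 and the fibrinogen chains in WT (blue) and Gsr-null (red) samples, numbered as in the text, with the mean and SD as bars; circles are samples of the lower and triangles of the higher 3' minus 5' set. Klkb1 is lower in every Gsr-null sample, at 10.35 to 10.68, and the groups overlap for the other genes shown.

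None of the serine proteases and cofactors of the main cascade passed the test, and their differences ran from -0.21 to 0.25. F2, prothrombin, had a mean of 12.63 ± 0.13 (SD, n = 5) in WT livers. Its mean in Gsr-null livers was 12.63 ± 0.106 (SD, n = 6), with an interval of the difference from -0.22 to 0.22. F5, the cofactor of factor Xa, differed by -0.035 and by -0.10 on its second probe set. F10, factor X, differed by 0.028, and by 0.17 and 0.11 on its other probe sets. F13b, the carrier subunit of the enzyme that cross-links fibrin, differed by 0.016. F7, the protease that tissue factor binds, differed by -0.21 (SE 0.25, limma adjusted p = 0.95), with Gsr-null values of 7.33 to 8.69 and WT values of 7.61 to 8.39.

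F9, the factor IX gene on the X chromosome, had the third smallest p of the list. It was 10.50, 10.64, 10.61, 10.12 and 10.52 in WT samples and 10.59 to 10.97 in Gsr-null samples, with a median of 10.71. WT sample 4 lay below the others, and the groups overlapped. The difference of 0.25 (SE 0.123, limma adjusted p = 0.638) did not pass the test. F9 and F10 deviated together, with an r of 0.682 (permutation p = 0.00882, adjusted p = 0.0162), a rho of 0.827 (permutation p = 0.004, adjusted p = 0.011) and an r of 0.598 without Gsr-null sample 3 and WT sample 4.

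Of the anticoagulant proteins, Serpinc1 (antithrombin) differed by -0.023, Serpind1 (heparin cofactor II) by 0.067 and Proc (protein C) by -0.12. Serpinc1 deviated together with F2, the gene of the protease it inhibits, with an r of 0.865 (permutation p = 0.0031, adjusted p = 0.00852), a rho of 0.845 (permutation p = 0.00362, adjusted p = 0.011) and an r of 0.722 without Gsr-null sample 2 and WT sample 1. Pros1, the protein S gene, was the member with the largest positive difference. Its WT values were 7.76, 8.01, 8.28, 8.08 and 8.08, and its Gsr-null values ran from 7.94 to 8.88 with a median of 8.30. Gsr-null samples 1, 2 and 3 exceeded every WT sample and the other 3 did not. The difference was 0.30 (SE 0.176, limma adjusted p = 0.747), or 1.23-fold, and it was 0.59 within the set of lower and 0.01 within the set of higher 3' minus 5' difference.

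Of the 6 vitamin K-dependent members, whose proteins need carboxylated glutamates to bind membranes, 3 were higher and 3 lower and 0 passed the test. The fibrinolysis genes were the most even group. Plg (plasminogen), Serpinf2 (the plasmin inhibitor), Hrg and Vtn (vitronectin) differed by 0.012 to 0.075, and none passed the test. The second probe set of Vtn differed by 0.031.

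The initiators of the classical and lectin pathways gave 3 positive and 3 negative differences. Masp2, the lectin pathway protease that cleaves C4 and C2, was 9.27, 9.20, 9.15, 8.69 and 9.01 in WT samples. In Gsr-null samples its lowest, median and highest values were 7.62, 8.88 and 8.88, and 4 of the 6 samples shared the same value. All but WT sample 4 lay above every Gsr-null sample. The difference was -0.50 (SE 0.235, limma adjusted p = 0.616), or 1.41-fold higher in WT, and the second probe set of Masp2 gave -0.097. Masp1, whose representative probe set differed by 0.098, had tested probe sets of opposite sign, at -0.013, 0.18 and -0.016, so it had no settled direction. Mbl1 and Mbl2, the mannose-binding lectins, differed by 0.14 and -0.26, and their deviations gave an r of -0.508 (permutation p = 0.128, adjusted p = 0.176) and a rho of -0.273 (permutation p = 0.442, adjusted p = 0.54). That r rested on Gsr-null sample 5 and WT sample 1, without which it was 0.0497. Masp1 and Masp2 gave an r of 0.0247 (permutation p = 0.979, adjusted p = 0.979) and a rho of 0.0186 (permutation p = 0.961, adjusted p = 0.961), and r was 0.0629 without Gsr-null samples 1 and 5.

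Among the regulators, Serping1, the C1 inhibitor that also restrains kallikrein and factor XII, differed by -0.031, and Cfi, the protease that inactivates C3b and C4b, by 0.094. Cfb, the protease of the alternative pathway, was 11.40, 11.62, 11.69, 11.54 and 11.62 in WT samples and 11.26 to 12.13 in Gsr-null samples, with a difference of 0.12 (SE 0.161, limma adjusted p = 0.965). Of the 6 members listed as positive acute phase proteins, 5 were higher and 1 lower, with differences of -0.031 to 0.29 and 0 that passed the test. In a list of other acute phase genes all 17 that passed the filter were higher in Gsr-null livers, with a median difference of 0.68 and 0 called by limma. Orm2, an orosomucoid gene, was 4.67 to 5.30 in WT and 6.37 to 11.84 in Gsr-null samples, a difference of 3.63 (SE 0.805, limma adjusted p = 0.112). Lcn2 differed by 4.98 (SE 1.17, limma adjusted p = 0.146) and Saa1 by 2.94 (SE 0.877, limma adjusted p = 0.282). The groups did not overlap for Orm2 and Lcn2 and overlapped for the other 15 genes. Lists of this kind were chosen with earlier results of these data known.

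Among the terminal complement genes, C6 and C8b had the widest spread of all members among Gsr-null samples. C6, a protein of the membrane pore, was 9.74, 9.77, 10.36, 9.43 and 10.53 in WT samples. In Gsr-null samples it was 6.95 and 7.72 in samples 4 and 5 and 9.67 to 10.49 in the other 4. Samples 4 and 5 lay far below every WT sample, while samples 1, 2 and 3 were within the upper part of the WT range. The difference was -0.72 (SE 0.619, limma adjusted p = 0.911), the largest in size of the list, and it was 0.23 without Gsr-null samples 4 and 5. The SD was 0.461 in WT and 1.53 in Gsr-null samples.

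C8b, the beta chain of C8, grouped the Gsr-null samples alike. It was 10.60, 10.37, 11.34, 10.18 and 11.23 in WT samples, 9.21 and 9.18 in Gsr-null samples 4 and 5, and 10.85 to 11.69 in the other 4. Again samples 4 and 5 were below every WT sample, and samples 1 and 3 were above all of them. The difference was -0.13 (SE 0.483, limma adjusted p = 0.999), and it was 0.58 without Gsr-null samples 4 and 5. C8a, the alpha chain, was 12.21, 12.17, 12.53, 12.06 and 12.60 in WT samples and 11.56 to 12.57 in Gsr-null samples, with samples 4 and 5 at 11.56 and 11.73 and a difference of -0.12 (SE 0.206, limma adjusted p = 0.978). C9, which closes the pore, was 11.998, 12.14, 12.95, 12.10 and 12.76 in WT samples and 12.07 to 13.25 in Gsr-null samples, with a median of 12.72 and a difference of 0.29 (SE 0.252, limma adjusted p = 0.912).

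C8a and C8b deviated together with an r of 0.963 (permutation p = 0.00109, adjusted p = 0.00502), a rho of 0.836 (permutation p = 0.00812, adjusted p = 0.0149) and an r of 0.916 without Gsr-null samples 4 and 5. C6 and C9 gave an r of 0.822 (permutation p = 0.00137, adjusted p = 0.00502), a rho of 0.864 (permutation p = 0.00185, adjusted p = 0.0102) and an r of 0.801 without the same samples. C2, the protease that pairs with C4b, and Cfb, its neighbour and relative, gave an r of 0.773 (permutation p = 0.00681, adjusted p = 0.015), a rho of 0.784 (permutation p = 0.00677, adjusted p = 0.0149) and an r of 0.789 without Gsr-null sample 3 and WT sample 5. In all, 6 of the 11 pairs had an adjusted p under 0.05 for both measures. All values come from the same 11 arrays, so the pairs share each array's own deviations.

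The promoters of C6, C8a and C8b are shown because these genes had the same lowest Gsr-null samples. In build GRCm38.p6 they are at chr15:4726960-4727259, plus strand for C6, chr4:104876349-104876648, minus strand for C8a and chr4:104766067-104766366, plus strand for C8b.

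C6: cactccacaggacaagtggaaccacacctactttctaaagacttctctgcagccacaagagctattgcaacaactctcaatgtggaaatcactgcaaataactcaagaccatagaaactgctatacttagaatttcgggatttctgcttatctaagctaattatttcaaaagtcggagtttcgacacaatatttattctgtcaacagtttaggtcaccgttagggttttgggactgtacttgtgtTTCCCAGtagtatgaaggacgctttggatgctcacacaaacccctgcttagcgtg

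C8a: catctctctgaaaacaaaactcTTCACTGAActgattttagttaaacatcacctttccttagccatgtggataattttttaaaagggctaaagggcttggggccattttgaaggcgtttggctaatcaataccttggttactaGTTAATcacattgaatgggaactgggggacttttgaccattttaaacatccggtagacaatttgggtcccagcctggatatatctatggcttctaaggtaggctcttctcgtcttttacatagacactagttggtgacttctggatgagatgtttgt

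C8b: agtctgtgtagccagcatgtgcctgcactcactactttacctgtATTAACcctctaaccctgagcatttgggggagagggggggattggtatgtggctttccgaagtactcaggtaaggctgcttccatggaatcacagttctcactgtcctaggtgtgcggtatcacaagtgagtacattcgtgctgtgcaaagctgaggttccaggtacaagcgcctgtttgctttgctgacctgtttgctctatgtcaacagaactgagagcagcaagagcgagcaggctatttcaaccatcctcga

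No motif was shared by all 3. C6 holds a match to the interleukin-6 element, C8a to STAT and HNF1, and C8b to HNF1.

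**Figure D3:**
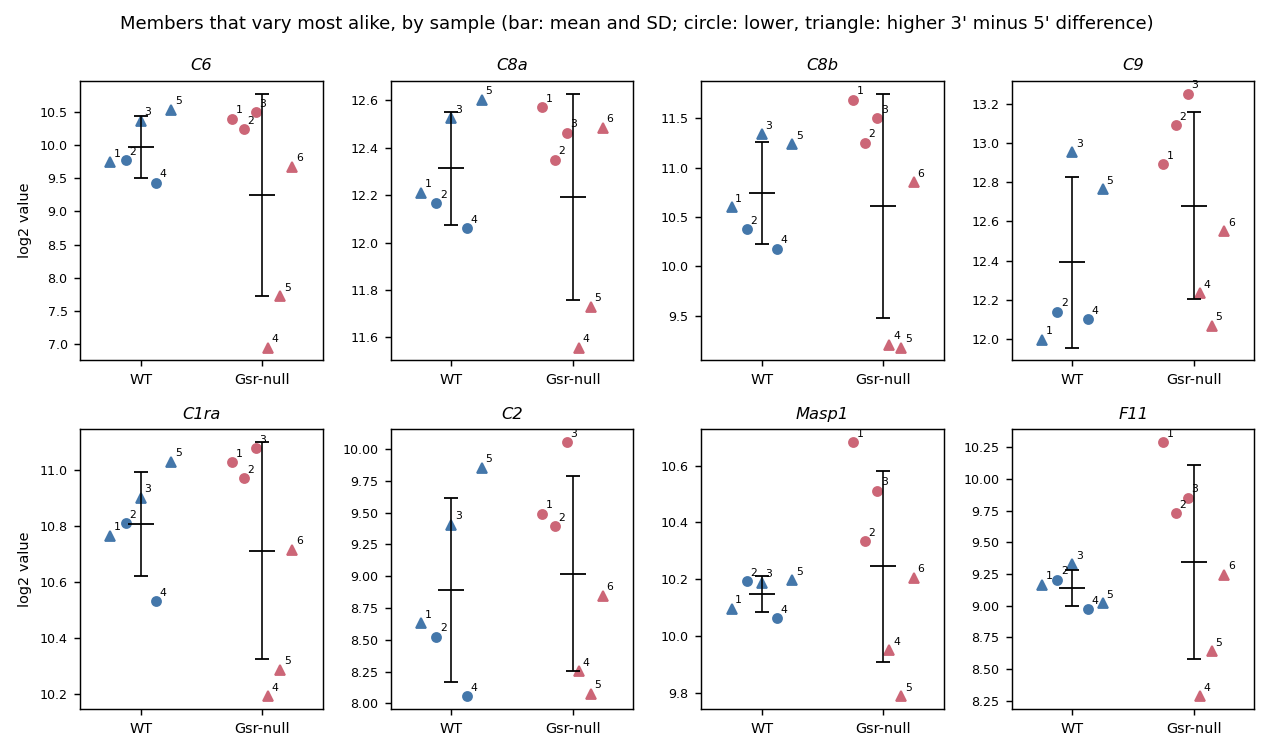
Log2 values (y axis) of 8 members in WT (blue) and Gsr-null (red) samples, numbered as in the text, with the mean and SD as bars; circles are samples of the lower and triangles of the higher 3' minus 5' set. In each gene shown Gsr-null samples 4 and 5 are the lowest of the 6 Gsr-null samples. They are below every WT sample in all genes shown but C2 and C9.

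A like grouping of the Gsr-null samples ran through much of the list. Gsr-null samples 4 and 5 were the lowest of the 6 Gsr-null samples in 13 of the 34 members, against 7.57% of all genes, and samples 1, 2 and 3 were the highest in 23, against 11.7%. The 13 were F11, Fgb, Fgg, Pros1, C1ra, C2, Masp1, Cfb, Serping1, C6, C8a, C8b and C9. These samples were picked after the members' own values had been seen, so the counts are a description and not a test. In the sum of the acute phase genes, too, samples 4 and 5 were the lowest of the Gsr-null samples. The log2 of the summed level of 19 measured acute phase genes was 15.55 and 15.54 in samples 4 and 5. It was 16.12 to 17.10 in the other Gsr-null samples and 15.34 to 15.93 in WT samples. In that sum samples 4 and 5 thus lay within the WT range. In C6, C8a, C8b, C1ra, Masp1 and F11 they lay below every WT sample. The median deviation of the members from their own means over all samples came to 0.254, 0.147 and 0.263 for Gsr-null samples 1, 2 and 3, and to -0.157, -0.222 and -0.135 for samples 4, 5 and 6. In WT samples 1 to 5 it was -0.207, 0.097, 0.0808, -0.101 and 0.0974. The same median over all genes stayed between -0.136 (Gsr-null sample 6) and 0.0807 (WT sample 5) in the 11 samples. The SD was larger in Gsr-null than in WT samples for 26 members (76.5%), against 62.9% of all genes. Over the 561 pairs of members the median r of the deviations was 0.528, against 0.0643 over all pairs of tested genes. The genotype means of the members ran from 7.85 to 13.73, while tested genes reach down to the filter. Genes of like level were not compared.

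**Figure D4:**
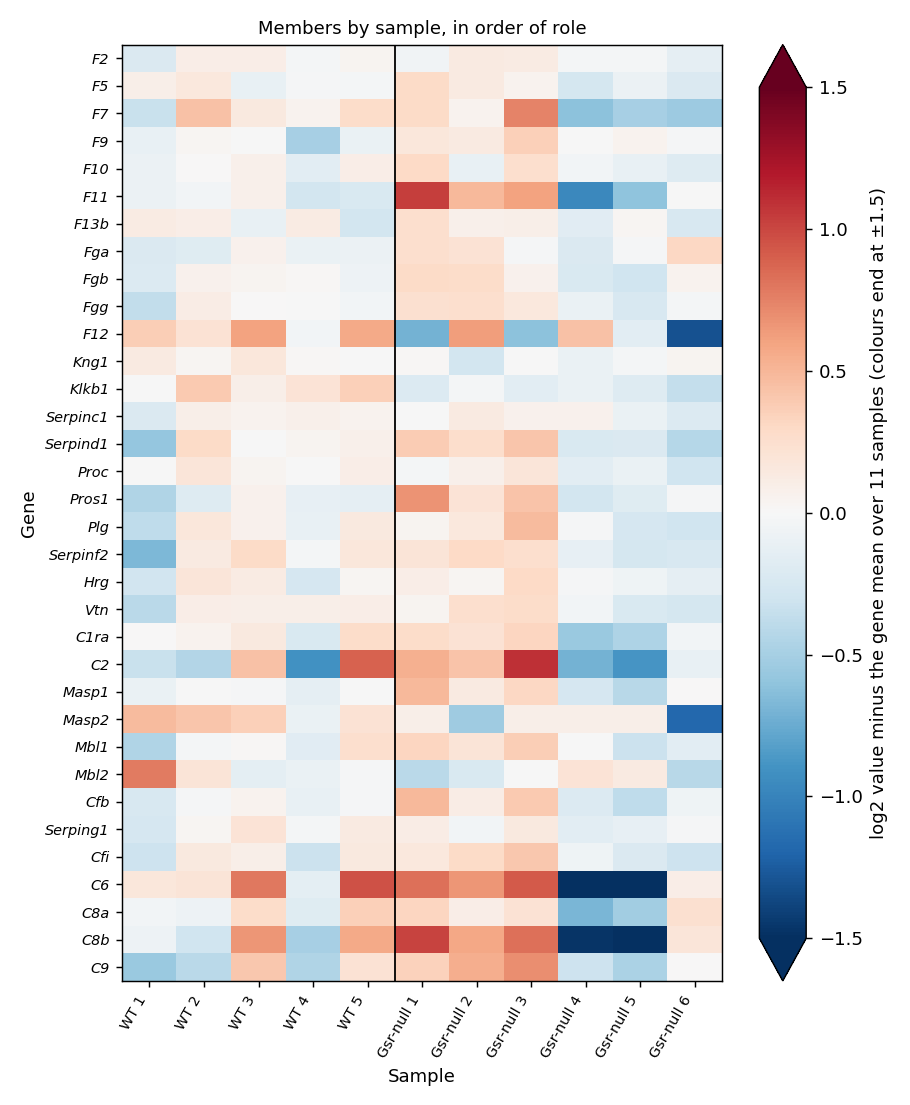
Log2 value of each member (rows, in order of role) minus its mean over the 11 samples (columns, WT left of the line and Gsr-null right of it), in colour. Gsr-null samples 1, 2 and 3 are mostly above and samples 4 and 5 mostly below the gene means, most of all in C6 and C8b.

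Those samples were also parted by the 3' minus 5' difference, and the genotype difference was therefore recomputed within each set. In the lower set (2 WT and 3 Gsr-null samples) 27 of 34 members were higher in Gsr-null livers, and the median difference was 0.19. In the higher set (3 and 3) 30 of 34 were lower, and the median was -0.15. In 23 members (67.6%) the difference was positive in the first set and negative in the second, against 31.0% of all genes. The sets part Gsr-null samples 1, 2 and 3 from the others, as the grouping described above does, so these counts in part restate it. Members that deviate together are also not separate observations of the animals. C2 differed by 1.36 (lower set) and -0.90 (higher set), C8b by 1.20 and -1.31, C6 by 0.77 and -2.10, C9 by 0.96 and -0.29 and F11 by 0.87 and -0.45.

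The difference between the sets was tested in a fit over all tested probe sets, chosen after these values had been seen. By limma 0 of 34 members passed at an adjusted p under 0.05, against 0 of 6021 genes (0%), while 9 members (26.5%) had an unadjusted p under 0.05, against 11.9% of all genes. The genotype difference was more positive in the lower than in the higher set in 32 members, against 55.2% of all genes. That count rests on the same samples and on members that deviate together. The smallest p-values were those of C2 (genotype difference in the lower set minus that in the higher set 2.26, SE 0.488, limma adjusted p = 0.169) and C8b (2.51, SE 0.597, limma adjusted p = 0.211). The levels of C2 behind this value were 8.52 and 8.06 in WT samples and 9.39 to 10.05 in Gsr-null samples of the lower set. In the higher set they were 8.63, 9.40 and 9.85 in WT samples and 8.08 to 8.85 in Gsr-null samples. With the sets as a block, the median difference over members was 5.75e-05 and 0 were called.

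**Figure D5:**
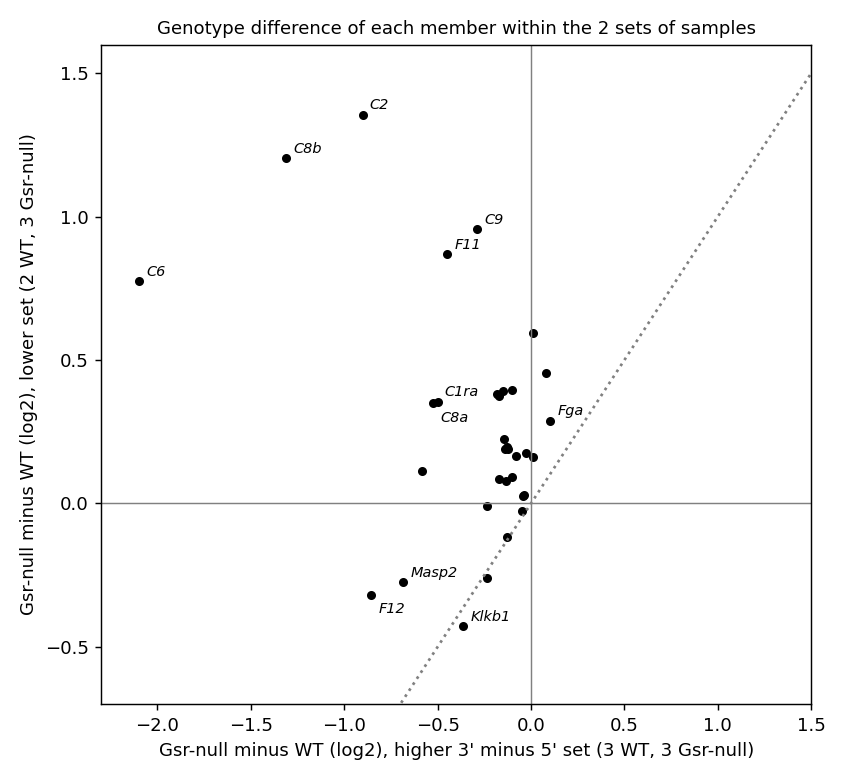
Genotype difference (Gsr-null minus WT, log2) of each of the 34 members within the set of higher (x axis; 3 WT, 3 Gsr-null) and of lower (y axis; 2 WT, 3 Gsr-null) 3' minus 5' difference; the dotted line marks equal values. C2, C8b, C6, C9 and F11 are negative on the x axis and positive on the y axis, whereas Klkb1 is near the line at -0.36 and -0.43.

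Some other values are given for the same samples. Saa1, an acute phase gene whose probe set may also bind relatives, measured 10.41 and 10.61 for Gsr-null samples 4 and 5, and 14.11, 12.92, 13.67 and 13.99 for samples 1, 2, 3 and 6. Among Gsr-null samples it was thus low in samples 4 and 5 but high in sample 6. In sample 6 the median deviation was -0.135 over members and -0.136 over all genes, so the members were not low beyond the whole array. In WT samples 1 to 5 Saa1 was 10.58, 8.43, 12.04, 7.97 and 9.36. The log2 of the summed level of the 8 measured Kupffer cell and macrophage markers came to 11.71, 11.02 and 11.35 for Gsr-null samples 1, 2 and 3, to 10.40, 10.81 and 10.20 for samples 4, 5 and 6, and to between 10.65 and 11.39 in WT samples. That sum was lower in samples 4, 5 and 6 than in samples 1, 2 and 3, as was the median deviation of the members. The sum was lowest in sample 6 and the member median in sample 5. Marco, a marker of Kupffer cells, did not pass the filter, and the other 7 did. The same sum for sinusoidal endothelial markers was 10.17, 10.24 and 10.64 in samples 1, 2 and 3. It was 9.86, 10.09 and 9.80 in samples 4, 5 and 6, so it was parted alike. The sums of hepatocyte and stellate cell markers were not. The log2 of the summed hepatocyte markers came to 17.01 and 16.98 for Gsr-null samples 4 and 5, within the range of the others. The part of the acute phase genes, the macrophage, endothelial and neutrophil markers and RNA integrity in these values was not tested.

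Of other genes of coagulation and fibrinolysis, 24 of 27 listed were measured and 13 passed the filter. F3 (tissue factor), F13a1, Vwf, Tfpi, Thbd, Procr, Serpina5, Plat, Plau, Plaur and A2m did not. By limma 0 of the 13 were called, with 6 positive and 7 negative differences and a median of -0.016. The smallest p was that of S100a10, a partner of annexin A2 in plasminogen binding, at 0.71 (SE 0.269, limma adjusted p = 0.479). Next were Mcfd2 and Lman1, which together carry factors V and VIII out of the endoplasmic reticulum, at 0.28 (limma adjusted p = 0.559) and 0.29 (limma adjusted p = 0.692).

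Of other complement genes, 24 of 33 were measured and 18 passed the filter, with 0 called, 9 positive and 9 negative differences and a median of -0.0049. Cfhr2, a relative of factor H, differed by -0.39 (SE 0.128, limma adjusted p = 0.363). It was 10.99, 10.79, 10.50, 10.996 and 10.59 in WT samples and 10.30 to 10.69 in Gsr-null samples, and sample 6 alone overlapped the WT range. C4bp, which binds C4b, differed by 0.21 (limma adjusted p = 0.838) and Cpn2 by 0.18 (limma adjusted p = 0.850).

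Genes that carry the interleukin-6 signal or drive liver transcription gave 3 positive and 11 negative differences among the 14 that passed the filter, with 0 called and a median of -0.19. Onecut1 differed by -0.89 (limma adjusted p = 0.484), Foxa3 by -0.69 (limma adjusted p = 0.497) and Socs3, the feedback inhibitor of the interleukin-6 receptor, by -0.64 (limma adjusted p = 0.638). Hnf4a differed by 0.038, Stat3 by 0.023 and Cebpb by -0.15.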

How the data were processed

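Liver RNA of 5 WT and 6 Gsr-null mice was measured on 1 Affymetrix array each. The deposited values are log2 probe set levels, made by the authors with GCRMA per the submitters' processing notes (version, filters and scan dates are not given in the sources used here). The scale was read from the range of the values. GCRMA corrects background and normalizes between arrays, so shifts of whole arrays are not visible. The number of arrays limits the precision.

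Of 22690 probe sets, 64 controls were left out, and the 9560 that exceeded 4 (log2) in 5 or more samples entered the test with limma 3.58.1 in R 4.3.3 (lmFit, eBayes), with Benjamini-Hochberg adjustment over all of them and a call at an adjusted p under 0.05. On simulated data for this comparison, over 9560 probe sets, 74% of planted changes of 1 and 99% of those of 2 were recovered, and 5.46% of calls had not been planted. The simulated noise was independent between probe sets and of equal spread in both genotypes. The members deviate together and mostly have a larger SD in Gsr-null samples, so these rates do not carry over to them directly. Correlations used deviations from genotype means and 100000 two-sided permutations within genotype. Figures used matplotlib 3.10.9. All members could be named; those with no overlap between groups, the smallest p, the largest differences or discordant probe sets, and the fibrinogen chains, were given in full by rule. C2, C8a, C8b, Cfb and F11 were given in full after their values were seen. Of each other list the 3 genes with the smallest p were to be named, plus a fixed set. The members and lists were chosen with earlier results of these data known. Alternatives varied the filter, scaling, variance model, weights, blocks, threshold, probe set choice and samples.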

Additional observations from a re-analysis of the deposited data

Results flagged for a closer look

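A single sample was far from the rest of its genotype in 4 of the 98 gene and genotype groups examined, and chance alone gives about 1 in 20, or 4.9. For F9 it was WT sample 4, at 10.12, with the rest of WT at 10.50 to 10.64. For Serpinc1 it was WT sample 1, at 12.49, with the rest at 12.75 to 12.79, and for Vtn the same sample, at 12.02, with the rest at 12.51 to 12.53. For Cfhr2 it was Gsr-null sample 6, at 10.69, with the remaining 5 at 10.30 to 10.36.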

How the results depend on the processing

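The fits within each 3' minus 5' set are kept apart from the alternatives here. No call among the members or the other coagulation and complement genes was gained or lost under any of these alternatives. The smallest adjusted p of a member by limma among them was 0.171, that of Klkb1 with the 3' minus 5' sets as a block. Within the set of lower difference C8b (limma adjusted p = 0.138), C9 (0.164) and C2 (0.169) had smaller values, and 0 members were called. Klkb1 ranged from -0.43 to -0.33 with an adjusted p of 0.171 to 0.582. Of 850 values of members under these alternatives, 780 kept their sign and 70 did not, and 15 members never changed sign among them. The sign changed with each array centred on its median for F2 (0.035), F5 (0.0013), Serpinc1 (0.013) and Serping1 (0.0053), after quantile normalization for Fgb (-0.043), and with array weights for F10 (-0.030), Serpinf2 (-0.025), Vtn (-0.0042) and C2 (-0.197). With the 3' minus 5' block it changed for F13b (-0.0078) and Vtn (-0.016). Without Gsr-null samples 2 and 3 it changed for F10 (-0.00048), F11 (-0.023), F13b (-0.023), Fgb (-0.018), Serpind1 (-0.087), Plg (-0.104), Serpinf2 (-0.088), Vtn (-0.115), C2 (-0.225) and Cfi (-0.057). Without Gsr-null samples 4 and 5, chosen after seeing the data, it changed for F2 (0.014), F5 (0.047), F7 (0.019), C1ra (0.140), Serping1 (0.032), C6 (0.232), C8a (0.155) and C8b (0.578). The cause was not tested.

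Same-numbered samples of the genotypes did not deviate together, with correlations of -0.243 to 0.036, and 0 of 5 samples correlated best with their own number. The numbers therefore do not pair the samples. With the replicate number as a block F2 was 0.026, F5 0.0058 and Serpinc1 0.015, 0 members were called and the median over members was 0.066.

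Leaving out 1 sample at a time changed the sign of some values, whose ranges were as follows for Serpind1 (-0.069 to 0.158), Plg (-0.047 to 0.107), Serpinf2 (-0.125 to 0.117), Vtn (-0.088 to 0.065), F2 (-0.055 to 0.026), F5 (-0.094 to 0.016), F13b (-0.052 to 0.066), Serping1 (-0.097 to 0.016), C8b (-0.347 to 0.155), F10 (-0.028 to 0.070), C2 (-0.083 to 0.366), Fgb (-0.00047 to 0.118), C1ra (-0.169 to 0.0083), C8a (-0.196 to 0.0072), Serpinc1 (-0.080 to 0.015), the correlation of Masp1 and Masp2 (-0.194 to 0.278) and the correlation of F11 and Klkb1 (-0.164 to 0.0954). The median over members ranged from -0.050 to 0.077, calls from 0 to 0, and members without overlap from 1 to 2 (Masp2 joining Klkb1 without WT sample 4). The share of all genes without overlap was counted with all samples only.

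The correlation of Mbl1 and Mbl2 was 0.0497 and that of F11 and Klkb1 0.157 without the 2 farthest samples, and that of Masp1 and Masp2 was -0.118 with each array centred. Members without overlap numbered 2 without Gsr-null samples 2 and 3 (Proc joining Klkb1) and 2 without samples 4 and 5 (Masp1 joining it). Fewer samples overlap less readily, and the share of all genes was not counted for these settings. The median of all genes was -0.032, and 0.0038 with each array centred and -0.017 after quantile normalization. Levels near the filter carry little signal above background.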
